A study of Homo sapiens with 4 samples.

Results

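Peaks of phosphorylated H2A.X (γH2AX) in cells given doxorubicin alone were set directly against those in cells given OTS186935 alone. Each drug had 1 list, of 47495 doxorubicin peaks and 59710 OTS186935 peaks on chromosomes 1 to 22 and X, after rows that overlapped or touched had been merged. Joined together, the lists made 84779 regions, of the 123975 regions covered by the 4 lists of the study. A peak was called shared when it overlapped a peak of the other drug by at least 1 bp.

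The cells were SK-UT-1 (SK-UT1 in the sample labels), an established line of uterine leiomyosarcoma, a cancer of smooth muscle. The groups were 0.5 µM doxorubicin, 1 µM OTS186935, both drugs together at those doses, and 0.1% DMSO as the control, with 1 library each. A PARP inhibitor is named in the title of the series, whereas the labels of these libraries name doxorubicin. The treatment time is not given in the sources used here, and with no replicate every difference below compares 2 libraries and not 2 conditions. Peaks do not measure expression, so the cell line label was not checked against marker genes.

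Doxorubicin slips between DNA bases and traps topoisomerase II on cut DNA, leaving double-strand breaks. Kinases of the damage response then phosphorylate H2AX, a histone H2A variant, over wide stretches of chromatin around each break. SUV39H2, the enzyme that OTS186935 inhibits, methylates lysine 9 of histone H3, a mark of silent chromatin, and has also been described as methylating H2AX itself. A peak in these lists marks γH2AX that stands out from its own surroundings, so broad domains and the total amount of γH2AX are not measured.

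Promoters show the contrast at single sites, where a strong peak could cover the start of a gene with 1 drug and be absent from the list of the other. The following sequences run from 250 bases before to 50 after the start, read 5′ to 3′ on the gene's own strand, from RefSeq on GRCh38.p14. They show 2 promoters for each outcome, under peaks with −log10 q of at least 5, and capitals mark CpG dinucleotides. With doxorubicin only, a peak covered the promoter of SERPINB5, which encodes the serpin maspin (chr18:63476708-63477007, plus strand), and that of MCTP2, a membrane protein with C2 domains (chr15:94231311-94231610, plus strand).
SERPINB5: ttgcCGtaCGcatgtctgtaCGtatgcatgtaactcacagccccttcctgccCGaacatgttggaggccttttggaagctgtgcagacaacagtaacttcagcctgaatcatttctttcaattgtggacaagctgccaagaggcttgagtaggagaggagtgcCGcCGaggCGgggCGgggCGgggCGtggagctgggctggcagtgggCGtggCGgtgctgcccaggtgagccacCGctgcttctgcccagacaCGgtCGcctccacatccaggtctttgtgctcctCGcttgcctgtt
MCTP2: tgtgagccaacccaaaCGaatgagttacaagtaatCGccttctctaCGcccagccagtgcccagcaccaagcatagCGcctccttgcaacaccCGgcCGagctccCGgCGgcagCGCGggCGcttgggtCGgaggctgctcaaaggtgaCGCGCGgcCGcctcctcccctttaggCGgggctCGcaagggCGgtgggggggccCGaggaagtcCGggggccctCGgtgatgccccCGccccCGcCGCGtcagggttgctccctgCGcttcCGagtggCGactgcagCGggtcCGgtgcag
OTS186935 alone gave peaks over the promoters of ZNF334, a zinc finger gene (chr20:46513510-46513809, minus strand), and PROX2, a homeobox gene (chr14:74876096-74876395, minus strand).
ZNF334: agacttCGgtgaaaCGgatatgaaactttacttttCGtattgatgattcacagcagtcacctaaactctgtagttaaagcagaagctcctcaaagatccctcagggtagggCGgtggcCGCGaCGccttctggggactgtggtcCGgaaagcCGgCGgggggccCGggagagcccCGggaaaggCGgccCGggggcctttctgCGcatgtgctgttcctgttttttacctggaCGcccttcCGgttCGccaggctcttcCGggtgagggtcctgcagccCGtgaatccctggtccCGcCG
PROX2: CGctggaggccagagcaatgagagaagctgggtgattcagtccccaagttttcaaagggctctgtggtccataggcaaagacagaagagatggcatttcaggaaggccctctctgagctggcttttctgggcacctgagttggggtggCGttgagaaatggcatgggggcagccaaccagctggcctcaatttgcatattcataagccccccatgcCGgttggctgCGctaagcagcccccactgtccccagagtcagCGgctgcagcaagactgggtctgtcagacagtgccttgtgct
Both drugs gave peaks over the promoters of CETN1, a centrin of the centriole and sperm flagellum (chr18:580130-580429, plus strand), and PKD2L2, a polycystin family gene (chr5:137889207-137889506, plus strand).
CETN1: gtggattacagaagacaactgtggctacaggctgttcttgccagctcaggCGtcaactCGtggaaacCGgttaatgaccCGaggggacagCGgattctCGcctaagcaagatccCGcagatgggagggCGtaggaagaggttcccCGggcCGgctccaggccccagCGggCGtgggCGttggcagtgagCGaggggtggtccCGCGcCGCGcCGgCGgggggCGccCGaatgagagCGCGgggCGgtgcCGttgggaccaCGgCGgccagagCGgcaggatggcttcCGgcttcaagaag
PKD2L2: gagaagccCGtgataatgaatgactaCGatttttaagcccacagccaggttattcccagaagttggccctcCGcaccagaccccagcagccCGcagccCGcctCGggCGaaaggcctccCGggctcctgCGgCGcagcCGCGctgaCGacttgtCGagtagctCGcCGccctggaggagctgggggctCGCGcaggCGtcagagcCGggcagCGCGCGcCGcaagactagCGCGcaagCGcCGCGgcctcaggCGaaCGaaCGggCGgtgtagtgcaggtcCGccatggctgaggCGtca

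At SERPINB5 the doxorubicin peak reached 7.2-fold over local background on 9 fragments at its summit, and no peak lay there in the OTS186935, combination or DMSO libraries. The fold is the authors' own value for each peak and describes that peak within its list. The MCTP2 peak was 6.65-fold, on 9 fragments, and its summit lay 9 bp past the gene start. For OTS186935, ZNF334 had 7.88-fold on 13 fragments and PROX2 7.74-fold on 10. CETN1 had 8.32-fold with doxorubicin and 8.52-fold with OTS186935, with summits 25 and 23 bp before the start. PKD2L2 had 8.05-fold with doxorubicin and 8.33-fold with OTS186935, on 13 fragments each. Neither site was particular to the drugs. DMSO had 9.75-fold at CETN1 and 6.14-fold at PKD2L2, and the combination 4.48-fold at CETN1 and 5.08-fold at PKD2L2. The printed promoters held 16 and 31 CpG where doxorubicin alone had a peak, 22 and 5 for OTS186935 alone, and 30 and 35 for both.

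The shared peaks were a minority of each list. With doxorubicin 22368 peaks (47.1%, 95% interval 46.6 to 47.5) overlapped an OTS186935 peak, and 25127 (52.9%) did not. With OTS186935 22258 peaks (37.3%, 36.9 to 37.7) overlapped a doxorubicin peak, and 37452 (62.7%) did not. Intervals here are exact Clopper-Pearson intervals and cover counting error only. Cut to 47495 peaks each by −log10 p, the lists shared 41.4% of doxorubicin peaks and 41.1% of OTS186935 peaks, so the gap between both shares above went with the length of the lists.

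The OTS186935 list was also the stronger one. Peaks with −log10 q of 5 or more numbered 4762 (10.0%) with doxorubicin and 10592 (17.7%) with OTS186935, a ratio of 0.450, against 0.795 for all peaks. The fragments at the summit, solved from the deposited values, had a median of 7 in both lists and a 99th percentile of 21 with doxorubicin and 27 with OTS186935. Estimated fragments per library were 3.56 M with doxorubicin and 3.32 M with OTS186935, so the longer list had the lower estimated depth.

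How often a peak was shared went with its strength. Of doxorubicin peaks with −log10 q of 1 to 2, 31.5% had an OTS186935 peak, and of those at 10 or more, 90.5% (86.0 to 94.0, 210 of 232 peaks) had one. Of OTS186935 peaks, 21.5% of the weakest class and 82.5% of the strongest had a doxorubicin peak. Most peaks of both lists were weak, so the lists overlapped less as wholes than their strong peaks did.

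**Figure D1:**
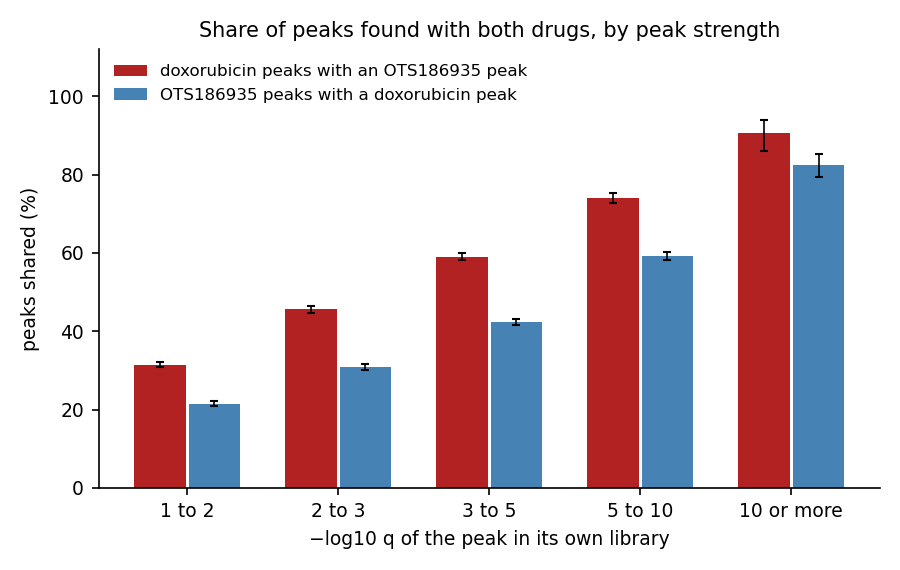
Percent of doxorubicin peaks (red) and of OTS186935 peaks (blue) that overlap a peak of the other drug, by the −log10 q of the peak. Bars carry exact 95% intervals for counting error. The shares climb from 31.5% to 90.5% for doxorubicin and from 21.5% to 82.5% for OTS186935.

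Width separated the sets too. Doxorubicin peaks had a median width of 405 bp and OTS186935 peaks 448 bp. Shared doxorubicin peaks had a median of 471 bp and those with doxorubicin only 371 bp, while the medians were 537 bp for shared OTS186935 peaks and 416 bp for OTS186935 only. Peaks of 1 kb or more were 2.16% of the doxorubicin list and 4.04% of the OTS186935 list, and 92.5% of these doxorubicin peaks and 77.1% of these OTS186935 peaks were shared. Only 0.306% of the peaks with doxorubicin only were that wide, against 1.47% of those with OTS186935 only. The narrowest peak measured 295 bp with doxorubicin and 323 bp with OTS186935, so the lists start from different widths, and the part of this in the gap between the medians was not tested.

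**Figure D2:**
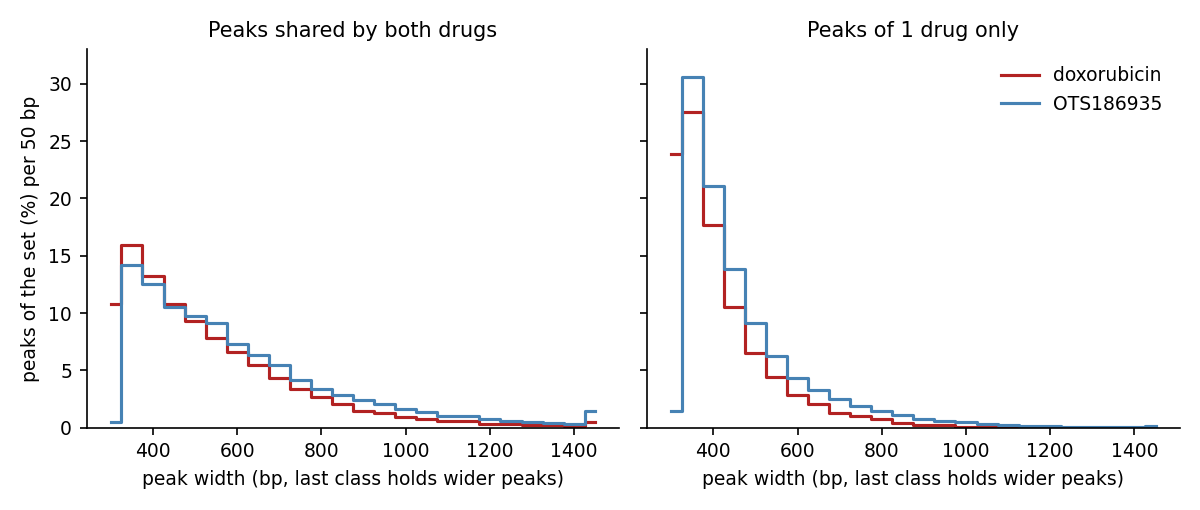
Width of shared peaks (left) and of peaks of 1 drug only (right) in classes of 50 bp, as percent of each set, for doxorubicin (red) and OTS186935 (blue). Both sets of 1 drug only crowd into the narrow classes, with medians of 371 bp (doxorubicin) and 416 bp (OTS186935).

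Shared peaks often, but not always, had their summits close together. Taking for each shared doxorubicin peak the OTS186935 peak it overlapped, the summits lay a median of 93 bp apart, with 52.4% within 100 bp and 21.9% over 250 bp apart. The doxorubicin summit held fewer fragments than the OTS186935 summit in 56.1% of pairs and more in 30.7%. Few peaks of 1 drug only lay right beside a peak of the other drug. Their median distance to the nearest peak of the other drug was 10713 bp for doxorubicin and 12609 bp for OTS186935, and 0.314% of the doxorubicin-only peaks and 0.208% of the OTS186935-only peaks lay within 50 bp of it. Within 1 kb lay 8.16% of the doxorubicin-only peaks and 6.27% of the OTS186935-only peaks, and within 10 kb 48.0% of the doxorubicin-only peaks and 42.4% of the OTS186935-only peaks. Over 100 kb from any peak of the other drug lay 4.79% of the peaks with doxorubicin only and 5.24% of those with OTS186935 only.

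The combination and DMSO libraries show whether the peaks of 1 drug only turned up elsewhere. The DMSO list held 72858 peaks and the combination list 29213. A longer list is overlapped more often, so shares and counts for these libraries cannot be compared with each other as they stand. Of peaks with doxorubicin only, 12.6% (12.2 to 13.0) overlapped a combination peak and 33.6% a DMSO peak. Of peaks with OTS186935 only, 14.5% (14.1 to 14.8) overlapped a combination peak and 40.5% a DMSO peak. Neither library had a peak at 61.1% of the doxorubicin-only sites or at 54.2% of the OTS186935-only sites. Shared peaks were found again far more often: 43.9% of shared doxorubicin peaks overlapped a combination peak and 77.1% a DMSO peak.

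At like strength, the peaks of each drug alone were found with the combination about equally often. At −log10 q of 3 to 5 the share was 17.5% (16.5 to 18.5) of doxorubicin-only peaks and 17.6% (16.9 to 18.3) of OTS186935-only peaks, and at 5 to 10 it was 24.6% (22.2 to 27.2) of doxorubicin-only peaks and 23.7% (22.4 to 25.1) of OTS186935-only peaks. The intervals overlapped in all 5 classes of strength. Overlap with DMSO was higher for OTS186935-only peaks at −log10 q of 1 to 2 (25.6% of doxorubicin-only peaks and 30.3% of OTS186935-only peaks), and likewise at 2 to 3 and 3 to 5, where the intervals did not overlap either. The q values were adjusted within each library, so equal q is not exactly equal signal.

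**Figure D3:**
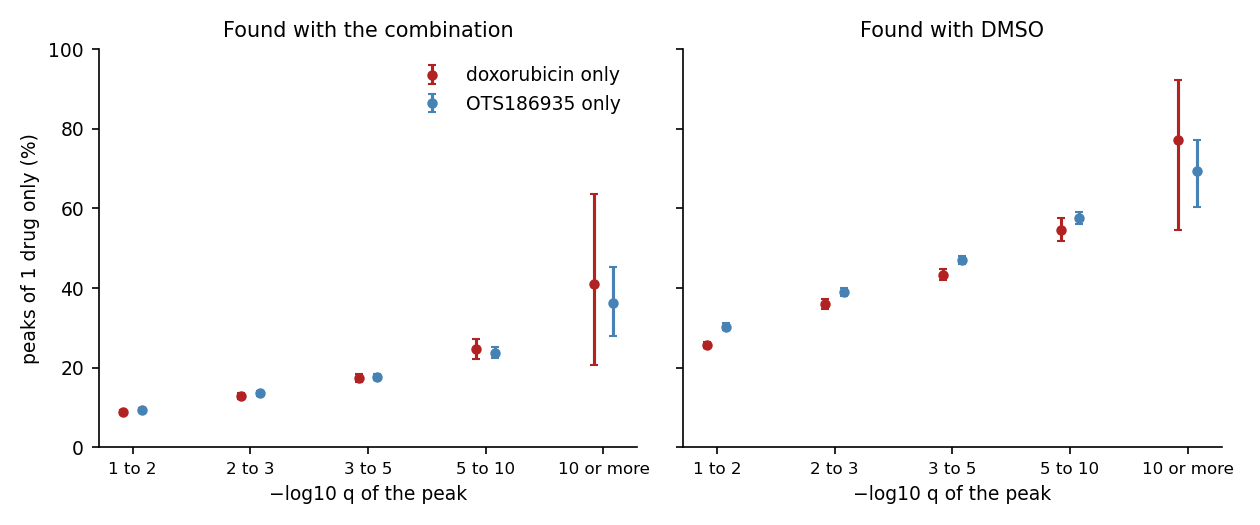
Percent of peaks with doxorubicin only (red) and with OTS186935 only (blue) that overlap a combination peak (left) or a DMSO peak (right), by −log10 q, with exact 95% intervals. On the left the colours lie together in each class. On the right OTS186935 lies higher in the 3 weakest classes, with 25.6% for doxorubicin and 30.3% for OTS186935 in the weakest.

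Across the genome both drugs put peaks in the same large regions. Over the 2861 bins of 1 Mb with a peak of either drug, the counts of both lists had a Pearson r of 0.95 and a Spearman rho of 0.932. Bins share mappable length, gene content and copy number, so this is a description only. Counts of peaks with doxorubicin only and with OTS186935 only had r = 0.843 over the same bins, and all peaks in windows of 100 kb had r = 0.714. Windows of 100 kb held a median of 2 peaks of each drug, against 12 doxorubicin peaks and 14 OTS186935 peaks in bins of 1 Mb. Sparse counts lower r by themselves, and windows empty in both lists were left out. The values of r at both sizes therefore cannot be compared with each other.

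What remained at large scale ran with gene density. In bins with 16 or more protein-coding genes there were 33.2 doxorubicin peaks and 45.4 OTS186935 peaks per Mb, a ratio of 0.733. Bins without a coding gene had 4.19 doxorubicin peaks and 4.91 OTS186935 peaks per Mb, a ratio of 0.853. With 1 to 5 genes the ratio was 0.848, and with 6 to 15 it was 0.789. With lists of equal length the ratios were 1.02, 1.04, 0.993 and 0.956 from the emptiest to the most gene-dense class. Leaving out peaks at gene ends gave 0.850 in the emptiest and 0.736 in the densest bins, and leaving out peaks that overlapped a DMSO peak gave 0.862 and 0.714. These alternatives were added after the data had been seen.

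The chromosomes tended the same way, but not strictly. Chromosomes 13 (0.821) and 18 (0.801), the least gene-dense, lay near the ratio over all chromosomes, 0.795. Chromosome 19, the most gene-dense, had 34.8 doxorubicin peaks and 49.5 OTS186935 peaks per Mb, the lowest ratio at 0.704, and chromosomes 22 (0.711) and 17 (0.713) came next. Chromosome 4 had 11.4 doxorubicin peaks and 12.9 OTS186935 peaks per Mb, the highest ratio at 0.887, followed by chromosome 8 (0.861). Doxorubicin peaks were fewer on all 23 chromosomes. Between the ratio and coding genes per Mb, Pearson's r was −0.71 and Spearman's rho −0.69 over the 23 chromosomes, which share the same 2 libraries. Without chromosomes 17 and 19 these were −0.59 and −0.60. For peaks with −log10 q of 5 or more the relation was weaker, at r = −0.43 and rho = −0.55, and chromosome 17 had a ratio of 0.448, next to 0.450 over all chromosomes. Between lists of equal length the ratio was 0.903 on chromosome 19 and 1.09 on chromosome 4, and it was highest on chromosome 13 (1.18), where 542 doxorubicin peaks faced 459 OTS186935 peaks.

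**Figure D4:**
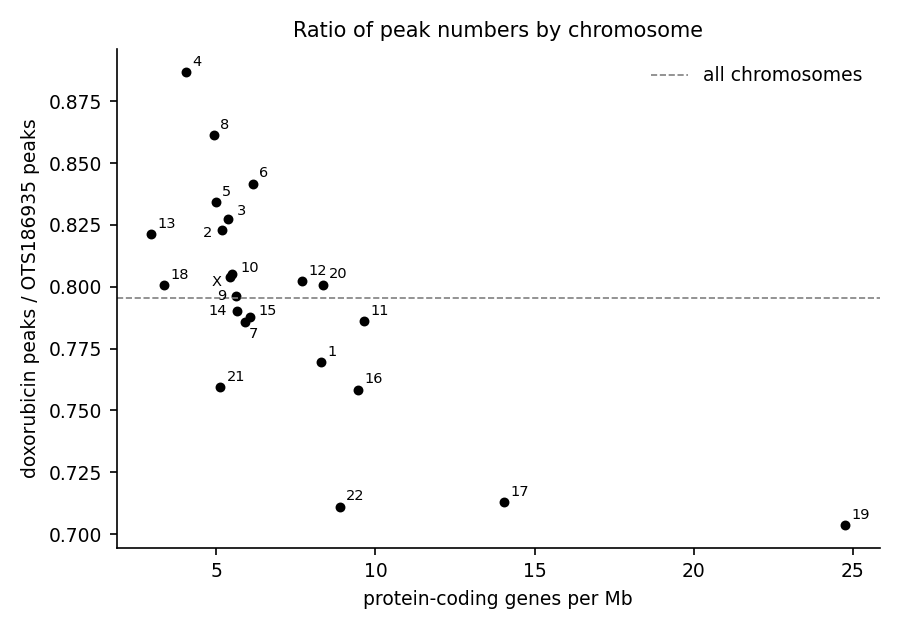
Number of doxorubicin peaks over number of OTS186935 peaks (y axis, not starting at 0) against protein-coding genes per Mb (x axis) for chromosomes 1 to 22 and X. The dashed line is the ratio over all chromosomes, 0.795. Chromosomes 17, 19 and 22 sit lowest and chromosomes 4 and 8 highest.

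Peaks were most often shared near chromosome ends. In the outermost 1 Mb there were 46.8 doxorubicin peaks and 58.7 OTS186935 peaks per Mb, and 71.3% of these doxorubicin peaks and 55.8% of these OTS186935 peaks were shared. More than 20 Mb from an end there were 13.0 doxorubicin peaks and 15.9 OTS186935 peaks per Mb, with 45.2% of doxorubicin peaks and 36.8% of OTS186935 peaks shared.

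Single bins of 1 Mb stood out by their share of each list. The bin with the largest excess for OTS186935, chr1:17000001-18000000, held 27 doxorubicin peaks and 72 OTS186935 peaks, with 19 in the combination and 69 in DMSO. It carries PADI1 to PADI4 and PADI6, enzymes that turn arginine of histones and other proteins into citrulline. The bin chr22:31000001-32000000, with the smooth muscle gene SMTN, held 17 doxorubicin peaks and 48 OTS186935 peaks. On chromosome 17 the bin from 74000001 to 75000000, with the CD300 receptor genes of myeloid cells, had 33 doxorubicin peaks and 69 OTS186935 peaks, and its neighbour up to 76000000 had 36 doxorubicin peaks and 70 OTS186935 peaks. A bin on chromosome 11 that holds H2AX itself (119000001 to 120000000) had 42 doxorubicin peaks and 77 OTS186935 peaks, and the bin of CTCF on chromosome 16 had 27 doxorubicin peaks and 58 OTS186935 peaks. DMSO, with 47 to 85 peaks, stood near or above OTS186935 by count in all 6 of these bins. Its list was also the longer one, with 72858 peaks against 59710 for OTS186935.

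Bins with a higher share for doxorubicin were milder. In chr5:151000001-152000000, which carries SPARC, a matrix glycoprotein gene, 39 doxorubicin peaks stood against 26 OTS186935 peaks. The bin at 94 to 95 Mb of chromosome 8, with the recombination gene RAD54B, had 29 doxorubicin peaks and 17 OTS186935 peaks, and chr1:232000001-233000000 had 23 doxorubicin peaks and 11 OTS186935 peaks. The bin of the protocadherin alpha cluster on chromosome 5 had 47 doxorubicin peaks and 41 OTS186935 peaks. The outermost bins of chromosomes 4 and 5 had 59 and 110 doxorubicin peaks, and 52 and 118 OTS186935 peaks, which were larger shares of the shorter list. DMSO held 40 peaks in the SPARC bin, 23 in that of chromosome 1 and 53 in the protocadherin bin. It held 70 and 131 in the outermost bins of chromosomes 4 and 5, and 20 in the RAD54B bin. By count DMSO thus stood near or above doxorubicin in all but the RAD54B bin. After the lists were cut to equal length doxorubicin had more peaks in all 6 bins of this paragraph and OTS186935 in all 6 of the others. The bins were chosen by their shares of the same lists, so this could hardly come out otherwise and shows nothing of their stability.

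Single gene bodies also differed. CSMD1, a gene of about 2 Mb for a complement control protein, held 24 doxorubicin peaks and 9 OTS186935 peaks over its body, with 12 in the combination and 23 in DMSO. SDK1, a cell adhesion gene, had 30 doxorubicin peaks and 26 OTS186935 peaks. ADAMTS2, a procollagen peptidase gene, held 22 doxorubicin peaks and 17 OTS186935 peaks. The PCDHA1 extent held 19 doxorubicin peaks and 14 OTS186935 peaks, and CTNNA3, an alpha-catenin gene, 15 doxorubicin peaks and 9 OTS186935 peaks. These leads lay mostly in weak peaks. Peaks with −log10 q of 5 or more numbered 2 with each drug in CSMD1, where the median fold was 3.6 with doxorubicin and 4.3 with OTS186935, and 0 with each in CTNNA3. SDK1 held 2 such doxorubicin peaks and 4 OTS186935 peaks, ADAMTS2 held 0 with doxorubicin and 2 with OTS186935, and PCDHA1 held 3 with doxorubicin and 2 with OTS186935.

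In the other direction stood MRTFA, the actin-controlled coactivator of serum response factor that drives smooth muscle genes. Its body held 0 doxorubicin peaks and 14 OTS186935 peaks, with 2 in the combination and 10 in DMSO. The OTS186935 peaks there were weak, at 2.38-fold to 5.73-fold, with none at −log10 q of 5 or more, and 8 remained in the list of equal length. A count of 0 peaks means that none passed the peak caller, not that no γH2AX was present. PLXNA4, a plexin receptor gene, had 7 doxorubicin peaks and 23 OTS186935 peaks, and MYT1L, a neuronal zinc finger gene, 17 doxorubicin peaks and 35 OTS186935 peaks. SH3RF3 had 15 doxorubicin peaks and 32 OTS186935 peaks. DLGAP2, a synaptic scaffold gene near the end of chromosome 8, had 68 doxorubicin peaks and 103 OTS186935 peaks.

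Genes at common fragile sites, long genes that replicate late and break under replication stress, leaned less to OTS186935 than the genome did. Their 23 bodies held 332 doxorubicin peaks and 371 OTS186935 peaks, a ratio of 0.895, against 0.795 over all chromosomes. Without CSMD1 the ratio was 0.851, and all coding genes of 1 Mb or more, CSMD1 included, also had 0.851. At equal list length the 23 genes had a ratio of 1.12. Doxorubicin had more peaks in 7 of the 23 genes, OTS186935 in 14, and 2 had equal numbers. FHIT, a tumour suppressor gene, held 4 doxorubicin peaks and 8 OTS186935 peaks, and WWOX, another, 13 doxorubicin peaks and 20 OTS186935 peaks.

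Windows of 100 kb with at least 6 peaks of 1 drug and none of the other numbered 1 for doxorubicin and 27 for OTS186935. Those of OTS186935 included windows in MRTFA, in KDM4C, an H3K9 demethylase gene, and in RXRA, a nuclear receptor gene. DMSO had 5 peaks in the MRTFA window, 6 in that of KDM4C and 7 in that of RXRA. The combination had 2, 6 and 1 in the same order. At equal list length the windows with at least 6 peaks numbered 3 for doxorubicin and 5 for OTS186935, so this contrast shrank once the lists were equally long. With a minimum of 4 peaks the equal lists gave 66 windows for doxorubicin and 60 for OTS186935, which turned the order. The window was chosen after the data had been seen.

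By gene class, peaks of both drugs were spread almost alike. Peaks within 1 kb of either end of a protein-coding gene, called gene ends here, were 9.12% of doxorubicin peaks and 9.71% of OTS186935 peaks. Bodies of protein-coding genes held 48.7% of each list, lncRNA genes 9.99% of doxorubicin peaks and 9.63% of OTS186935 peaks, and stretches with no annotated gene 29.9% of doxorubicin peaks and 29.8% of OTS186935 peaks. Gene ends had the lowest ratio of doxorubicin to OTS186935 peaks, 0.747, and pseudogenes the highest, 0.848. Gene ends were also the most often shared class with doxorubicin, at 62.3% of peaks. With OTS186935 pseudogenes had a higher share than the 47.0% of gene ends. The intervals of gene ends and pseudogenes overlapped with each drug. In gene bodies 44.6% of doxorubicin peaks and 35.2% of OTS186935 peaks were shared. Gene-end peaks were wider, with medians of 460 bp for doxorubicin and 520 bp for OTS186935.

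Of 19974 protein-coding genes, 4368 had a gene-end peak with doxorubicin (21.9%) and 5739 with OTS186935 (28.7%). Both drugs marked 2977 genes (14.9%), doxorubicin only 1391 (6.96%), OTS186935 only 2762 (13.8%), and neither 12844 (64.3%). With lists of equal length, 1769 genes were marked with doxorubicin only and 1975 with OTS186935 only. DMSO had a gene-end peak at 56.6% of the doxorubicin-only genes and 62.6% of the OTS186935-only genes, and at 88.7% of those marked by both. The combination, with a much shorter list than DMSO, had one at 19.4% of the doxorubicin-only genes and 20.8% of the OTS186935-only genes. It had one at 53.4% of those marked by both.

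Strong gene-end peaks with doxorubicin only, at −log10 q of 5 or more, were found at 81 genes. The highest was at GIMAP7, an immune GTPase gene (chr7:150513798-150514209), 10.6-fold on 15 fragments, with a DMSO peak of 6.19-fold and none in the combination. CYP2U1, a cytochrome P450 gene, had 7.98-fold at its 5′ end, and SFRP2, a secreted Wnt antagonist gene, 7.92-fold at its 3′ end. CLEC9A, a dendritic cell lectin gene, had 7.47-fold. One peak of 7.25-fold lay between the 3′ ends of CRYBA1, a lens crystallin gene, and NUFIP2, and was also called with the combination (6.52-fold) and DMSO (8.25-fold). SLC39A12, a zinc transporter gene, SERPINB5 and CEP15 had 7.2-fold each. Of the 10 genes of highest fold, all but SERPINB5 had a gene-end peak in DMSO as well.

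OTS186935 alone gave strong gene-end peaks at 295 genes. ZNF799, a zinc finger gene of chromosome 19, had the highest at 9.71-fold on 15 fragments (chr19:12413675-12414114), with 7.19-fold in DMSO. A peak of 9.45-fold on 21 fragments lay at the neighbouring 3′ ends of SCN8A, a sodium channel gene, and TMDD1. It was also called with the combination at 5.18-fold and with DMSO at 5.36-fold. CRADD, a death domain adaptor gene, had 9.03-fold and ALMS1, a ciliary gene, 8.94-fold, and neither had a peak in DMSO or the combination. SLC11A2, an iron transporter gene, had 8.93-fold at its 3′ end, 3.32-fold with the combination and 10.5-fold with DMSO. With 5′ ends alone, taken from the RefSeq promoters, SLC11A2 counted as marked with doxorubicin only. IFI27L2 had 8.84-fold, IL5RA, an interleukin receptor gene, 8.45-fold, and ERICH1 8.3-fold. GMCL2 had 8.62-fold, but it closely resembles GMCL1 and its peak is uncertain. DMSO also had gene-end peaks at GMCL2 (5.28-fold), IL5RA (4.81-fold) and, at its other end, ERICH1 (3.89-fold). IFI27L2 had no peak in DMSO but 6.22-fold with the combination.

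Both drugs gave strong peaks at 244 genes. OR2T10 was highest, with 11.5-fold on 17 fragments for doxorubicin and 9.88-fold on 14 for OTS186935, but olfactory receptor genes resemble each other and its position is uncertain. PLAAT5, an acyltransferase gene, had 8.61-fold with doxorubicin and 8.62-fold with OTS186935. The shared start of TMLHE, a carnitine synthesis gene, and SPRY3 had 8.23-fold with doxorubicin and 9.28-fold with OTS186935. ADNP2 had 8.01-fold on 25 fragments with doxorubicin and 10.8-fold on 30 with OTS186935. SRPRB, a subunit of the signal recognition particle receptor, DNAH8, a sperm dynein gene, and RGS22 had 8.26-fold, 8.65-fold and 8.35-fold with doxorubicin, against 8.18-fold, 8.05-fold and 7.93-fold with OTS186935. DMSO had a peak at all 10 of these genes.

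Topoisomerase and end-cleansing genes were 1 of 7 lists, of the 21 reported here, marked more often with doxorubicin. Of 14, 5 had a gene-end peak with doxorubicin (35.7%, 12.8 to 64.9) and 3 with OTS186935 (21.4%, 4.66 to 50.8), against 21.9% of all genes with doxorubicin and 28.7% with OTS186935. TOP1, the gene of topoisomerase I, had 5.76-fold with doxorubicin and 4.05-fold with OTS186935. APTX, which cleans DNA ends, had 4.9-fold with doxorubicin and 6.19-fold with OTS186935, and the mitochondrial TOP1MT 4.31-fold with doxorubicin and 3.14-fold with OTS186935. TDP1, which removes topoisomerase I from DNA, had 5.04-fold with doxorubicin only. TOP2B, a doxorubicin target, had 3.6-fold on 4 fragments with doxorubicin and no peak with OTS186935. DMSO also had a peak there, of 4.13-fold on 5 fragments, and had a gene-end peak at 4 of the 14 genes. The lead of doxorubicin rested on the setting. In windows of 2.5 kb the counts were 5 with doxorubicin and 6 with OTS186935, with 5′ ends alone 3 with each, and at −log10 q of 5 or more 0 with doxorubicin and 1 with OTS186935.

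Other repair lists lay below or near the background. Damage signalling genes had 1 of 17 with doxorubicin and 3 of 17 with OTS186935, H2AX itself carrying 4.3-fold with doxorubicin and 4.93-fold with OTS186935. Homologous recombination genes had 2 of 19 with doxorubicin and 3 of 19 with OTS186935. RPA1, a subunit of the single-strand binding complex, had 4.66-fold with doxorubicin and 6.19-fold with OTS186935 and RAD54L, a DNA translocase gene, 4.28-fold with doxorubicin and 5.5-fold with OTS186935. PARP and end joining genes had 2 of 20 with doxorubicin, the ligase gene LIG1 (4.97-fold) and the polymerase gene POLL, and 1 of 20 with OTS186935, the nuclease gene DCLRE1C (5.11-fold).

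Smooth muscle contractile genes differed most in percent among the 21 lists. Of 20, 4 had a gene-end peak with doxorubicin (95% interval of the share 5.73% to 43.7%) and 10 with OTS186935 (27.2% to 72.8%), and the intervals overlapped. DMSO had 13 and the combination 4. CALD1, the gene of caldesmon, had 3.6-fold with doxorubicin and 6.44-fold with OTS186935, and DES, that of desmin, 4.1-fold with doxorubicin and 5.8-fold with OTS186935, at different ends of the gene. ACTG2 (5.53-fold), ACTA2 (4.3-fold), LMOD1, SMTN, TPM2 and MYOCD had one with OTS186935 only, and no gene of the list had one with doxorubicin only. The doxorubicin count lay near the share over all genes, 21.9%, and the OTS186935 count above its 28.7%, while 6.96% of all genes had a peak with doxorubicin only and 13.8% with OTS186935 only. The actin genes ACTG2 and ACTA2 and the coactivator gene MYOCD are defining genes of smooth muscle. Their OTS186935 peaks rested on few fragments, 9 at ACTG2, 5 at ACTA2 and 3 at MYOCD, where −log10 q was 1.15. At equal list length 4 genes had one with doxorubicin and 7 with OTS186935. With 5′ ends alone the counts were 2 with doxorubicin and 4 with OTS186935. Genes altered in leiomyosarcoma had 3 with doxorubicin and 6 with OTS186935 of 17. Among them the cyclin gene CCNE1 had 5.85-fold with doxorubicin, no peak with OTS186935 and 5.47-fold in DMSO.

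Genes of H3K9 methylation and heterochromatin, the pathway of SUV39H2, had 3 of 29 with doxorubicin and 5 of 29 with OTS186935, and 3 with each drug at equal list length. The shares, 10.3% with doxorubicin and 17.2% with OTS186935, lay below those over all coding genes, 21.9% and 28.7%. DMSO had a gene-end peak at 11 of the 29 genes and the combination at 2. KDM4D, an H3K9 demethylase gene, had 7.74-fold with OTS186935 and no peak with doxorubicin. The KDM4D site also had 7.22-fold in DMSO and 4.85-fold with the combination. EHMT2, which encodes the methyltransferase G9a, had 3.8-fold with doxorubicin and 2.98-fold with OTS186935, and SUV39H1 3.04-fold with doxorubicin only. Immediate early and stress genes had 5 of 32 with doxorubicin (15.6%) and 9 of 32 with OTS186935 (28.1%), below and near the shares over all genes. AP-1 genes differed in both directions. FOSL2 had 5.14-fold with doxorubicin and 3.52-fold with OTS186935, and JUNB 4.58-fold with doxorubicin and 3.05-fold with OTS186935, in peaks that did not overlap. FOSL1 had 5.19-fold and JUN 3.15-fold with OTS186935 only. CCN2, a matrix growth factor gene, had 7.16-fold with OTS186935 and no peak with doxorubicin. The CCN2 site also had 5.01-fold in DMSO and 3.32-fold with the combination. DMSO, with its longer list, had a gene-end peak at 19 of the 32 immediate early and stress genes, FOSL1 and JUN included. Interferon response genes had 3 of 25 with each drug. Mitosis and replication licensing genes had 5 of 26 with doxorubicin and 6 of 26 with OTS186935.

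Among gene families, cytosolic ribosomal protein genes had 12 of 86 with doxorubicin and 20 of 86 with OTS186935, RPS23 having 7.62-fold with doxorubicin and 7.28-fold with OTS186935. Zinc finger genes of chromosome 19 had 38 of 246 with doxorubicin and 62 with OTS186935. Replication-dependent histone genes had 14 of 69 with doxorubicin and 17 with OTS186935, H2BC12 and H4C9 sharing a peak of 5.04-fold with doxorubicin and 8.38-fold with OTS186935. Olfactory receptor genes had few peaks, at 21 of 392 genes with doxorubicin and 24 with OTS186935. Collagen genes had 13 of 44 with doxorubicin and 17 with OTS186935, COL6A6 carrying 5.45-fold with doxorubicin and 10.7-fold with OTS186935. Over all coding genes the shares were 21.9% with doxorubicin and 28.7% with OTS186935. Collagen genes lay above them with both drugs, at 29.5% and 38.6%, and the other families of this paragraph below. Members of these families lie in clusters, can share a peak and resemble each other, so their counts are uncertain.

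At the main settings further lists had slightly more genes with doxorubicin than with OTS186935. HOX clusters had 17 of 39 with doxorubicin and 15 with OTS186935, clustered protocadherins 13 of 53 with doxorubicin and 12 with OTS186935, and keratin-associated protein genes 27 of 94 with doxorubicin and 25 with OTS186935. Neuronal genes had 8 of 12 with doxorubicin and 7 with OTS186935, and fragile site genes had peaks at their ends in 8 of 23 with doxorubicin and 6 with OTS186935. None of these leads held under every alternative. In windows of 2.5 kb protocadherins had 28 with doxorubicin and 33 with OTS186935, fragile site genes 10 with doxorubicin and 12 with OTS186935, and neuronal genes 8 with each. With 5′ ends alone HOX genes had 5 with doxorubicin and 7 with OTS186935, neuronal genes 2 with doxorubicin and 3 with OTS186935, and keratin-associated protein genes 19 with doxorubicin and 20 with OTS186935. At −log10 q of 5 or more protocadherins had 0 with doxorubicin and 3 with OTS186935, and keratin-associated protein genes 2 with doxorubicin and 4 with OTS186935. Epithelial genes had 8 with doxorubicin and 11 with OTS186935 of 16. Neuronal and epithelial genes, which serve other cell types than smooth muscle, thus had the highest shares among the 21 lists with both drugs. Both lists are small, with doxorubicin intervals of 34.9% to 90.1% (neuronal) and 24.7% to 75.3% (epithelial). DMSO had 8 of the 12 neuronal and 10 of the 16 epithelial genes. The lists were chosen with earlier results of these data known, so the ranking is a description only. SYT1, a synaptic vesicle gene, had 6.56-fold with doxorubicin and 4.97-fold with OTS186935. ELAVL4, a neuronal RNA-binding protein gene, had 6.43-fold with doxorubicin and 5.84-fold with OTS186935, and GRHL2, an epithelial transcription factor gene, 4.84-fold with doxorubicin and 6.88-fold with OTS186935.

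**Figure D5:**
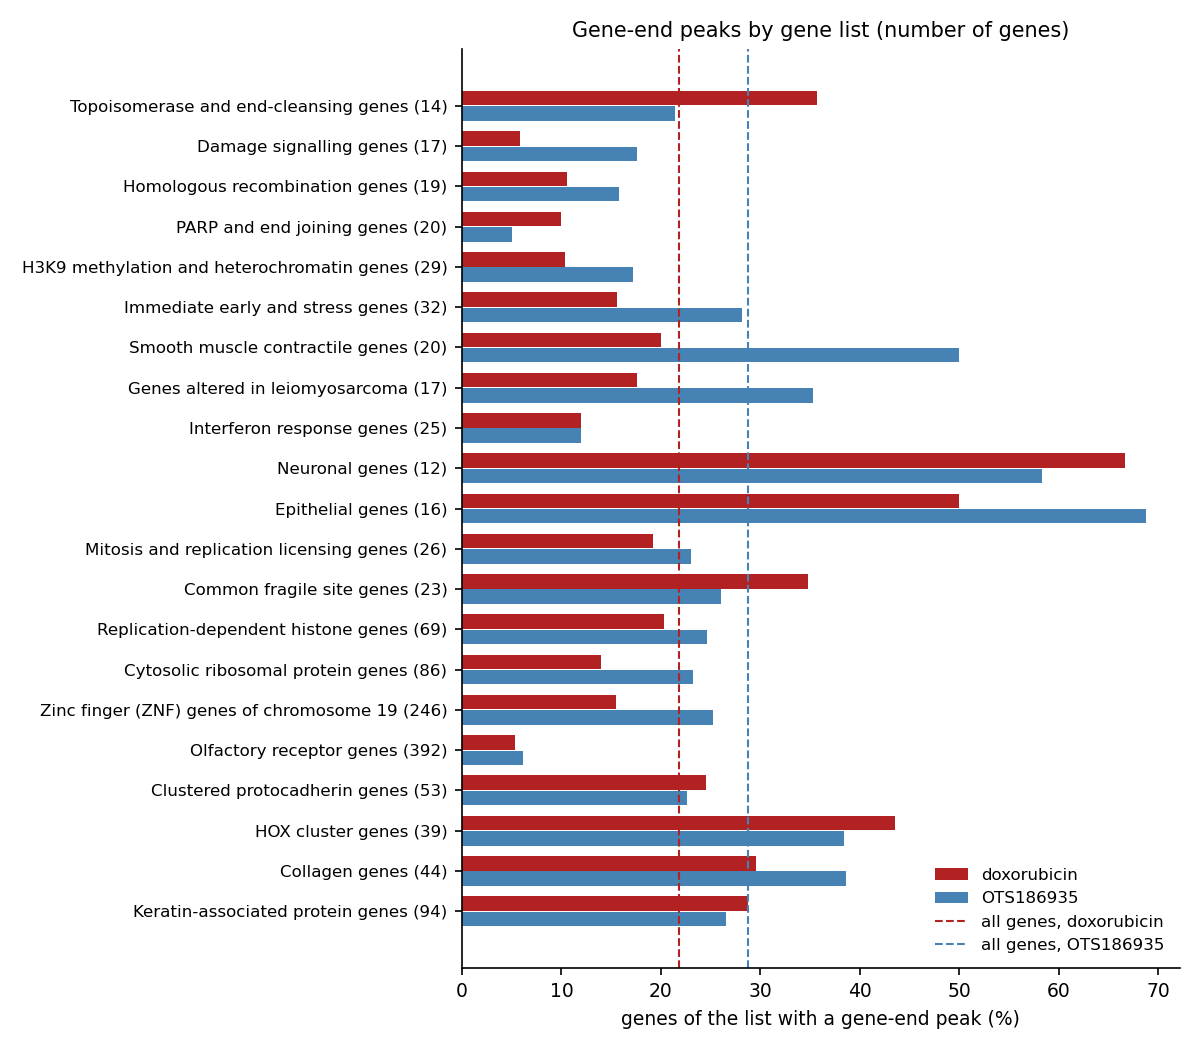
Percent of genes in each of 21 lists with a gene-end peak for doxorubicin (red) and OTS186935 (blue), with list sizes in parentheses. Dashed lines give the percent of all coding genes, 21.9% for doxorubicin and 28.7% for OTS186935. Smooth muscle genes show 4 of 20 for doxorubicin against 10 of 20 for OTS186935. Topoisomerase and end-cleansing genes show 35.7% for doxorubicin against 21.4% for OTS186935.

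Promoters marked by both drugs were more often rich in CpG than those marked by 1 drug only. Peaks covered part of the promoter window at 342 genes with doxorubicin only, 797 with OTS186935 only and 771 with both, of 15812 coding genes with a RefSeq promoter. The median was 19 CpG in 300 bases for doxorubicin only, 21 for OTS186935 only and 22 for both, against 22 over all promoters. Promoters with at least 10 CpG were 72.5% of the doxorubicin-only set, 76.0% of the OTS186935-only set and 85.9% of those with both, against 73.0% of all. Promoters with 0 to 2 CpG were the least often covered, at 1.30% with doxorubicin and 2.01% with OTS186935, and those with 10 to 24 the most often, at 9.86% with doxorubicin and 13.6% with OTS186935.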

How the data were processed

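γH2AX was measured by chromatin immunoprecipitation and sequencing in 4 SK-UT-1 libraries, 1 per condition. Per the submitters' processing notes, the tools were MACS2 2.2.7.1, bedtools 2.30.0, Bowtie2 2.4.2 and Picard 2.25.3, with build hg38. Their settings, the filters and whether an input library entered the peak calling: not given in the sources used here. The authors deposited 1 peak list per library with a fold (a ratio) over local background, −log10 p, −log10 q (adjusted within the library) and a score, which equalled 10 times the −log10 q cut to a whole number in nearly all rows. The lists held 48594 doxorubicin rows and 62008 OTS186935 rows.

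Overlapping or touching rows were merged, keeping the highest values, on chromosomes 1 to 22 and X. Depth is not stated, so the number of fragments at each summit was worked out from the fold and −log10 p that the authors deposited, under MACS2's definitions of both. A whole number matched the −log10 p within 0.002 in 100% of rows. Estimated fragments assume 2.7 Gb of mappable genome. Peaks were assigned to genes with a RefSeq table of GRCh38.p14, which gives no strand, so gene ends are windows of 1 kb around both ends of 19974 coding genes. A promoter sequence, and with it the strand, was matched for 15812 of them. A peak at a 5′ or 3′ end lies at that side of the annotated extent. Exons and introns were not told apart.

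No test was made, since each condition has 1 library. Shares carry exact Clopper-Pearson 95% intervals. The members, the 22 gene lists and the comparisons were chosen with earlier results of these data known. Named genes were, per drug and for both, the 10 of highest fold among gene-end peaks with −log10 q of 5 or more (for both, by the lower fold), up to 4 per list by the higher fold, 6 bins and 5 gene bodies per direction by the difference in percent of peaks. Of these, 1 list and some genes are not reported here. Other list members and bodies named were chosen after their values were seen. In lists cut to equal length, peaks of equal −log10 p were taken in a random order with a fixed seed. Merging, overlaps and solved fragments were tested on simulated data. Python 3.11.15 was used with numpy 2.4.6, pandas 2.3.3, scipy 1.17.1 and matplotlib 3.10.9.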

Additional observations from a re-analysis of the deposited data

How the results depend on the processing

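The ratio of doxorubicin to OTS186935 peak number was 0.795, and 0.450 at −log10 q of 5 or more. At that limit 39.7% of doxorubicin peaks and 17.8% of OTS186935 peaks were shared, since both lists then lose weak partners. Lists of equal length gave 41.4% of doxorubicin peaks and 41.1% of OTS186935 peaks, a reciprocal overlap of 50% gave 38.1% of doxorubicin peaks and 30.3% of OTS186935 peaks, and joining peaks within 1 kb gave 37.9% of OTS186935 peaks. Overlap with the combination was 6.93% of doxorubicin-only and 5.90% of OTS186935-only peaks at the q limit, 21.1% of doxorubicin-only and 22.6% of OTS186935-only peaks with 3 lists of equal length, and 11.5% of doxorubicin-only and 12.3% of OTS186935-only peaks with reciprocal overlap. A common −log10 p limit gave 13.0% for doxorubicin-only peaks. The order of both drugs in this share thus turned at the q limit, and the cause was not tested.

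Genes with a gene-end peak with doxorubicin only numbered 1391, 277 at the q limit and 802 with 5′ ends alone, an alternative added after the data had been seen. For OTS186935 only they numbered 2762, 921 at the q limit and 1692 with 5′ ends alone. Fewer peaks or windows enter by construction. The 30 named genes were chosen for strong peaks, so limits on q or p could hardly move them and show nothing of their stability. With windows of 2.5 kb 29 calls stood, and 12 of 22 with 5′ ends alone. SLC11A2 turned with 5′ ends alone, where 1 drug, doxorubicin, had a peak and OTS186935 had none. Of 44 list counts, 43 stayed within 1.5 times with equal length, 18 with windows of 2.5 kb, 17 with 5′ ends alone and 0 at the q limit, where all 23 chromosome ratios moved too. In bins of 5 Mb the counts of both drugs had r = 0.985. Using all contigs moved none of these shares beyond its interval. No paired analysis was possible because each condition has 1 library. A peak rests on a median of 7 fragments at its summit, so weak sites can be missed in either list.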
